A study of Homo sapiens with 16 samples.

Results

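The comparison described here sets 1% oxygen against 20% oxygen in H9 cells, an established line of human embryonic stem cells, and averages the oxygen effect over the cells given an siRNA against OCT4 (siOCT4) and the cells given the siRNA labelled NC, read here as the control siRNA. It takes 4 groups of 2 cultures. Hypoxic cultures were siOCT4 cells at 1% oxygen and control cells at 1% oxygen, and their counterparts were siOCT4 cells at 20% oxygen and control cells at 20% oxygen. All 8 cultures were grown without feeder cells in mTeSR1 medium, all carried an siRNA, and all came from 1 line. The cultures were chosen by the oxygen label alone, 4 at 1% oxygen and 4 at 20%, which are all 8 cultures of the series. Each stands for 2 of the 16 libraries, 1 of total RNA and 1 of RNA isolated with ribosomes and the chains they are making (RNC). The labels do not give the time spent at each oxygen level, the depth of OCT4 depletion, or whether replicate cultures were independent. The p-values below therefore measure the spread between these samples, which may be technical.

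The measured quantity is the translation ratio, the value of a gene in ribosome-bound RNA over its value in total RNA as the authors computed it. It reports how much of an mRNA sits on translating ribosomes. Cells short of oxygen are known to restrain protein synthesis through the kinase complex mTORC1, which acts on mRNAs that begin with a run of pyrimidines such as those of ribosomal proteins, and through phosphorylation of the initiation factor eIF2α, under which mRNAs of the integrated stress response such as ATF4 and its targets are still translated. Low oxygen also stabilises the HIF transcription factors, whose targets include genes of glycolysis. The deposited table holds no levels of either library, so a higher RNC value and a lower RNA value of a gene cannot be told apart in anything that follows, and the depth behind each ratio is unknown. In bulk cultures, fewer cells of a type and less of an RNA per cell cannot be told apart either.

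A ratio was present in all 8 cultures for 15864 of the 28252 genes in the table, and these were tested. All 7 markers of pluripotent cells that were checked (POU5F1, SOX2, NANOG, LIN28A, DPPA4, ZFP42 and PODXL) were among them. The median ratio was 1.35 and 1.31 in siOCT4 cells and 1.02 and 1.02 in control cells at 1% oxygen, against 1.11 and 1.11 in siOCT4 cells and 1.14 and 1.2 in control cells at 20%. The groups differed in how the ratio followed the GC content of the transcript. Spearman's rho between the 2 across genes was -0.81 and -0.82 in siOCT4 cells and 0.01 and -0.36 in control cells at 1% oxygen, against -0.45 and -0.34 in siOCT4 cells and -0.85 and -0.81 in control cells at 20%. Each oxygen level thus holds 1 group with a steep GC trend and 1 with a flatter one, and the slopes run opposite ways in the 2 siRNAs: rho between GC content and the oxygen effect over 14185 mRNAs was -0.77 in siOCT4 cells, 0.74 in control cells and 0.11 for the average. These correlations are across genes, which are not independent.

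Averaged over both siRNAs, the translation ratio was higher at 1% oxygen for 2087 genes (13.2% of those tested) and lower for 2988 (18.8%), with an adjusted p under 0.05 in limma's moderated test and Benjamini-Hochberg adjustment over all 15864 genes. Such genes are referred to as called, and effects are log2 differences of 1% minus 20% oxygen with the standard error (SE) and 2 cultures in each of the 4 groups. The median average effect over all genes was -0.07, with quartiles of -0.48 and 0.33 and a median SE of 0.16. By siRNA, the median effect over all genes was 0.27 in siOCT4 cells and -0.31 in control cells. Counts of list members below are to be read beside the shares of 13.2% higher and 18.8% lower. Within siOCT4 cells 5936 genes were higher (37.4%) and 3426 lower (21.6%), and within control cells 3255 were higher (20.5%) and 6290 lower (39.6%). An effect tested in 1 siRNA alone is here its own contrast, judged by a spread pooled over all 4 groups. The average hid large effects of opposite sign: the oxygen effect differed between the 2 siRNAs (interaction) for 10893 genes (68.7%), and 5808 genes (36.6%) were called in both siRNAs in opposite directions. Of these 5808, 4426 (27.9% of all genes) were higher in siOCT4 cells and lower in control cells, 1382 (8.71%) had the reverse pattern, and 1437 were nevertheless called on the average. Genes called the same way in each siRNA tested alone numbered 361 higher (2.28%) and 409 lower (2.58%), and all 770 were also called on the average. Of the 5075 genes called on the average, 1331 had no called interaction (616 higher and 715 lower).

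POU5F1, which encodes OCT4 and is the siRNA target, had ratios of 0.453 and 0.532 in siOCT4 cells and 1.13 and 0.810 in control cells at 1% oxygen, against 1.41 and 1.42 in siOCT4 cells and 0.758 and 0.981 in control cells at 20%. A ratio of 2 libraries of the same culture is no check of the knockdown. The average was -0.69 ± 0.16 (adjusted p = 0.0233), with -1.53 in siOCT4 cells (adjusted p = 0.00231) and 0.15 in control cells (adjusted p = 0.58). GC corrected, the effects were -0.91 and -0.39, and the called interaction was lost (adjusted p = 0.0835). The call was lost without replicate 2 of control cells at 1% oxygen and without any 1 siOCT4 culture (adjusted p = 0.0519 to 0.0815).

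The spread that these tests use is that between the 2 cultures of a group, pooled over the 4 groups, and the difference between the siRNAs is not part of it. The median absolute log2 difference between replicates at 1% and 20% oxygen was 0.17 and 0.15 in siOCT4 cells and 0.30 and 0.36 in control cells. Pearson's r between replicates was 0.88 and 0.44, and 0.61 and 0.87. Calls in control cells may thus be too lenient and those in siOCT4 cells too strict. With siRNA as an additive term and no interaction, so that the disagreement between the siRNAs counts as error, limma called 0 genes (2048 at an unadjusted p under 0.05, of which 937 higher and 1111 lower). With no term for siRNA it called 1 gene, the antisense RNA TRHDE-AS1, lower at 1% oxygen (adjusted p = 0.0313; 1956 at an unadjusted p under 0.05). A call on the average therefore says that the mean of the 2 effects differed from 0 by more than replicate cultures differ, and does not say that both siRNAs moved alike. The calls also leaned on the siOCT4 cultures: without replicate 1 or 2 of siOCT4 cells at 1% oxygen 1074 and 1163 genes were higher and 1735 and 1830 lower, and without replicate 1 or 2 of siOCT4 cells at 20% the counts were 1134 and 940 higher and 1555 and 1389 lower. After correction of each culture for its GC trend, 3194 of 15261 genes with a GC value were higher (20.9%) and 3175 lower (20.8%). Of the 4960 called genes with a GC value, 4469 were called the same way after the correction and 0 the opposite way. In the corrected values 718 genes (4.70%) were higher and 648 (4.25%) lower in each siRNA alone, 1765 (11.6%) were opposite and 6692 (43.9%) had a called interaction. With a further correction for the length of the whole transcript, 2775 genes (18.2%) were higher and 3033 (19.9%) lower on the average. In these values 1562 (10.2%) were opposite and 6503 (42.6%) had a called interaction.

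The averages and their split between the siRNAs thus differ in how far they depend on GC content. Of the 83 genes described below, 81 have a GC value. After the correction 80 of them had the same average call, and the other, IGFBP2, became called. The call within siOCT4 cells, within control cells or in the interaction changed for 44 of the 81. Of 55 called interactions, 43 were called with the same sign after correction, 9 were lost and 3 had the opposite sign, and of 26 genes with no called interaction 14 gained one. Effects by siRNA are uncorrected unless named as GC corrected, and the GC corrected ones are given for each gene whose calls changed. Which of the 2 versions is closer to the cells was not tested.

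**Figure D1:**
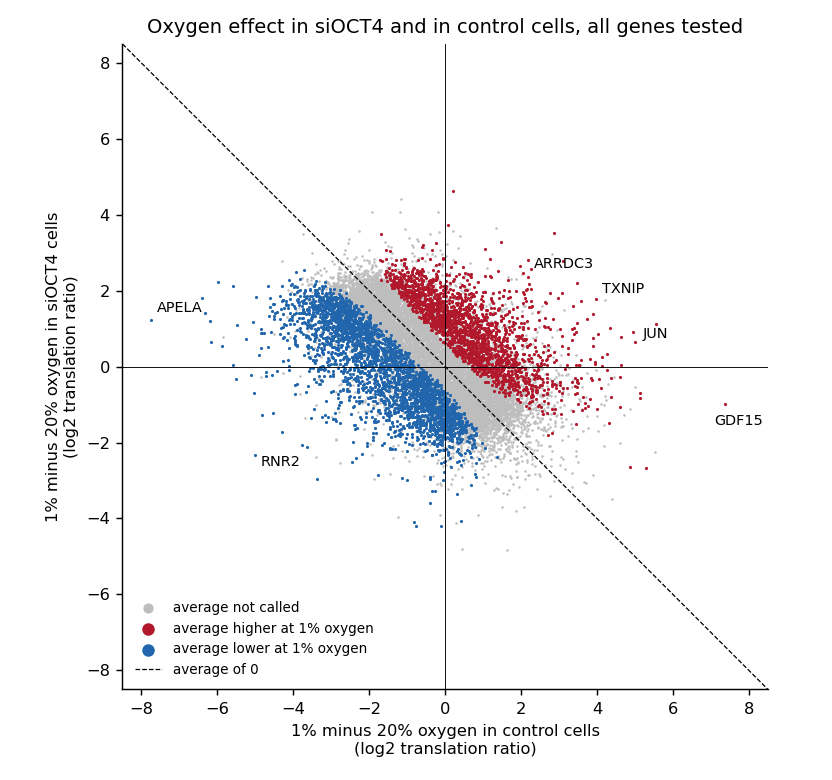
Each point is 1 of the 15864 genes tested, with the oxygen effect in siOCT4 cells on the y axis and in control cells on the x axis, both as log2 differences of 1% minus 20% oxygen without GC correction. Red points were called higher on the average (2087), blue points lower (2988) and grey points were not called. The cloud lies along the dashed line on which the 2 effects cancel, and TXNIP and ARRDC3 (upper right) and RNR2 (lower left) lie in the quadrants where both effects have 1 sign, whereas APELA and GDF15 do not.

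Before GC correction, both cultures at 1% oxygen lay above both at 20% under each siRNA for 1007 of the 15864 genes tested. They lay below under each siRNA for 1121. Of these, 468 higher and 558 lower genes were also called on the average and had no recurrent ratio. A recurrent ratio is a value shared by several genes of a culture, as small read numbers can give. Those of the 468 with the largest rise included 2 arrestin domain proteins. TXNIP, which encodes an inhibitor of thioredoxin and of glucose uptake, had ratios of 3.72 and 3.55 in siOCT4 cells and 3.20 and 3.52 in control cells at 1% oxygen, against 1.01 and 1.11 in siOCT4 cells and 0.223 and 0.206 in control cells at 20%. All hypoxic cultures lay above all others, and the average effect was 2.87 ± 0.09 (adjusted p = 0.00102). Its effect was smaller in siOCT4 cells (1.78) than in control cells (3.97), with an adjusted p of 0.000168 for the interaction. ARRDC3, a relative of TXNIP that acts as an adaptor in the turnover of membrane proteins, had ratios of 7.63 and 7.19 in siOCT4 cells and 3.18 and 3.94 in control cells at 1% oxygen, against 1.45 and 1.45 in siOCT4 cells and 1.01 and 0.602 in control cells at 20%. Here the effects were 2.36 in siOCT4 cells and 2.18 in control cells, with an average of 2.27 ± 0.19 (adjusted p = 0.00277) and an adjusted p of 0.701 for the interaction. KLF6, a zinc finger transcription factor induced by stress, rose by 1.94 ± 0.12 (adjusted p = 0.00277). Its ratios were 4.17 and 3.72 in siOCT4 cells and 2.70 and 3.07 in control cells at 1% oxygen, against 1.03 and 0.940 in siOCT4 cells and 0.879 and 0.696 in control cells at 20%. No culture of one oxygen level reached into the range of the other for these 3 genes. GC corrected, the effects in siOCT4 and control cells were 0.66 and 5.21 for TXNIP, 0.95 and 4.30 for ARRDC3 and 1.12 and 2.72 for KLF6, all called higher and all larger in control cells (adjusted p of the interaction 0.000915, 0.000959 and 0.00196).

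Very long mRNAs were also among them. DYNC1H1, the heavy chain of cytoplasmic dynein with a coding length of 13938 bases in the transcript used, had ratios of 0.878 and 0.870 in siOCT4 cells and 0.398 and 0.457 in control cells at 1% oxygen, against 0.226 and 0.200 in siOCT4 cells and 0.0936 and 0.0969 in control cells at 20%. All 8 values were below 1, the hypoxic ones stood apart on the upper side, and the average effect was 2.10 ± 0.22 (adjusted p = 0.00356). SPTAN1, a spectrin of the membrane skeleton, rose by 1.88 ± 0.15 (adjusted p = 0.00277). Its ratios were 0.870 and 0.843 in siOCT4 cells and 0.927 and 0.972 in control cells at 1% oxygen, against 0.457 and 0.407 in siOCT4 cells and 0.136 and 0.144 in control cells at 20%. Its range at 1% oxygen also lay above that at 20%. PLK2, a kinase and target of p53, rose by 1.29 ± 0.09 (adjusted p = 0.00277), from effects of 1.40 in siOCT4 cells and 1.18 in control cells. GC corrected, these were 0.68 and 1.76 for PLK2, and the interaction was called (adjusted p = 0.00395). Those of DYNC1H1 were 2.02 and 2.03.

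JUN and several inducible stress genes rose more in control cells than in siOCT4 cells. JUN, a subunit of the AP-1 transcription factor, had ratios of 1.45 and 1.38 in siOCT4 cells and 3.58 and 2.78 in control cells at 1% oxygen, against 0.831 and 0.981 in siOCT4 cells and 0.0888 and 0.109 in control cells at 20%. All hypoxic cultures were above all others, but the effect was 0.64 in siOCT4 cells (adjusted p = 0.0326) and 5.01 in control cells (adjusted p = 0.000152), for an average of 2.83 ± 0.14 (adjusted p = 0.00265). BHLHE40, a HIF target that encodes a transcriptional repressor, rose by 2.67 ± 0.09 (adjusted p = 0.00102), with 1.01 in siOCT4 cells and 4.33 in control cells. The inducible chaperone genes HSPA1A and HSPA1B rose by 2.32 ± 0.13 and 2.44 ± 0.17 (adjusted p = 0.00265 and 0.00277). These 2 genes have nearly identical sequences, so their reads may not have been separated in the counting. BAG3, a co-chaperone, rose by 1.81 ± 0.14 (adjusted p = 0.00277), with 0.55 in siOCT4 cells (adjusted p = 0.0595) and 3.08 in control cells. Of 18 heat shock and co-chaperone genes, 8 were called higher and 1, HSPE1, lower, and the median effect was 0.91 in siOCT4 cells and -0.03 in control cells (GC corrected, 0.41 and 0.55). The GC corrected effect of BAG3 in siOCT4 cells was 1.09 (adjusted p = 0.00282). HSPE1, the small chaperonin of the mitochondrial matrix, fell by 1.32 ± 0.15 (adjusted p = 0.00422), to about the same extent in siOCT4 cells (-1.18) and in control cells (-1.45; adjusted p = 0.461 for the interaction).

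**Figure D2:**
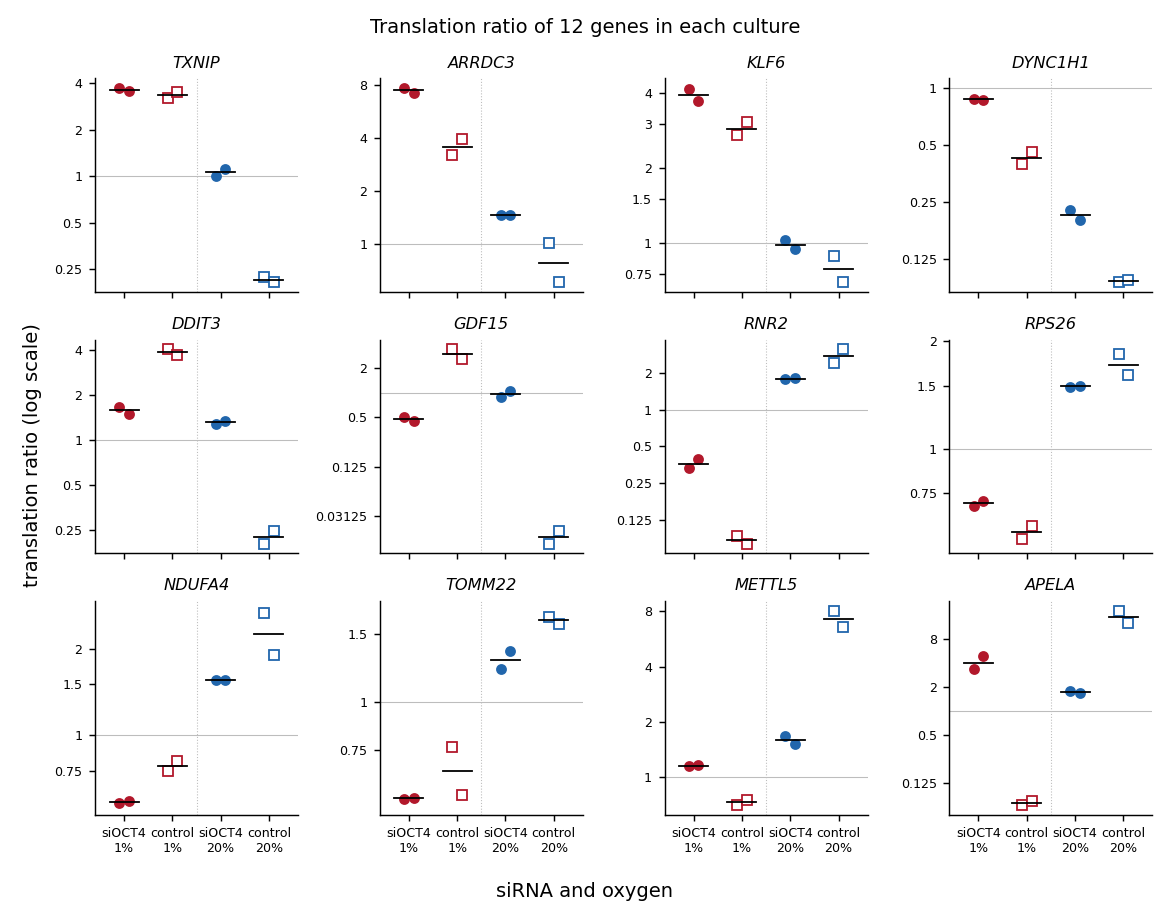
Translation ratio (log scale, own range in each panel) of 12 genes in each culture, with siOCT4 cells as circles and control cells as squares, cultures at 1% oxygen in red on the left and at 20% in blue on the right; black lines are geometric means of the 2 cultures of a group and the grey line marks a ratio of 1. Values are not GC corrected. TXNIP, ARRDC3, KLF6 and DYNC1H1 are higher at 1% oxygen under both siRNAs and RNR2, RPS26, NDUFA4, TOMM22 and METTL5 lower (after GC correction NDUFA4 is not called in control cells), whereas the averages of DDIT3, GDF15 and APELA come from the control cells.

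The largest fall was that of RNR2, listed in RefSeq's gene table as the large ribosomal RNA of the mitochondrion. Its ratios were 0.330 and 0.390 in siOCT4 cells and 0.0919 and 0.0792 in control cells at 1% oxygen, against 1.78 and 1.82 in siOCT4 cells and 2.41 and 3.13 in control cells at 20%. Its average effect was -3.67 ± 0.15 (adjusted p = 0.00134). The small mitochondrial ribosomal RNA, RNR1, fell by 2.29 ± 0.56 (adjusted p = 0.0276), with ratios of 0.279 and 0.240 in siOCT4 cells and 0.0883 and 0.0618 in control cells at 1% oxygen, against 0.497 and 0.633 in siOCT4 cells and 0.348 and 1.89 in control cells at 20%. Its call rested on all of the cultures of 3 groups: leaving out any 1 culture of control cells at 1% oxygen or of siOCT4 cells gave adjusted p-values of 0.0597 to 0.0975. These are not mRNAs of the cytosol, no GC value was available for them, and what their ratio represents was not tested. Among mRNAs, RPL22L1, a paralogue of a ribosomal protein, fell by 2.06 ± 0.23 (adjusted p = 0.00402), and RPL36AL, another such paralogue, fell by 1.90 ± 0.22 (adjusted p = 0.00423). METTL5, the enzyme that methylates an adenosine of the small ribosomal RNA, had ratios of 1.15 and 1.16 in siOCT4 cells and 0.705 and 0.751 in control cells at 1% oxygen, against 1.67 and 1.52 in siOCT4 cells and 8.06 and 6.59 in control cells at 20%. Every hypoxic culture was lower, with an average effect of -1.89 ± 0.11 (adjusted p = 0.00265) made up of -0.46 in siOCT4 cells and -3.32 in control cells. TMEM126A, a mitochondrial membrane protein needed to assemble respiratory complex I, fell by 1.84 ± 0.18 (adjusted p = 0.00351). Uncorrected, the fall was larger in control cells for RPL22L1, RPL36AL and TMEM126A. GC corrected effects in siOCT4 and control cells were -1.74 and -2.13 for RPL22L1, -2.27 and -1.27 for RPL36AL and -2.31 and -0.87 for TMEM126A, all called lower. The interaction was then lost for the 2 paralogues (adjusted p = 0.43 and 0.203) and reversed for TMEM126A (adjusted p = 0.03).

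Several secreted signalling proteins also fell. FGF8, a fibroblast growth factor of the primitive streak, had ratios of 0.622 and 0.366 in siOCT4 cells and 0.0646 and 0.120 in control cells at 1% oxygen, against 1.12 and 1.29 in siOCT4 cells and 0.912 and 0.759 in control cells at 20%, and fell by 2.29 ± 0.29 (adjusted p = 0.00482). PDGFA, a platelet-derived growth factor, fell by 1.95 ± 0.21 (adjusted p = 0.0038), with ratios of 0.920 and 0.537 in siOCT4 cells and 0.193 and 0.178 in control cells at 1% oxygen, against 1.27 and 1.74 in siOCT4 cells and 1.30 and 1.29 in control cells at 20%. For both genes the 4 hypoxic cultures lay below the 4 others. LEFTY1, an inhibitor of NODAL, fell by 1.88 ± 0.36 (adjusted p = 0.0137) with -1.85 in siOCT4 cells and -1.90 in control cells. WFIKKN1, a secreted inhibitor of growth factors of the myostatin kind, fell by 1.81 ± 0.38 (adjusted p = 0.0174). The calls of these 2 genes were lost without replicate 1 or 2 of siOCT4 cells at 20% oxygen (adjusted p = 0.0546 and 0.062 for LEFTY1 and 0.0619 and 0.0737 for WFIKKN1), and that of WFIKKN1 also without replicate 1 of siOCT4 cells at 1% oxygen (0.0577). DKK1, an inhibitor of WNT signalling, had ratios of 0.578 and 0.626 in siOCT4 cells and 0.305 and 0.0526 in control cells at 1% oxygen, against 1.40 and 1.43 in siOCT4 cells and 8.0 and 1.07 in control cells at 20%. One control culture at 20% oxygen stood at 8.0, and the call (average -2.88 ± 0.81, adjusted p = 0.0422) was lost in 16 of 28 alternative fits, 6 of which left out a single culture without a GC correction. ID3, a target of BMP signalling that blocks differentiation factors, fell by 1.63 ± 0.13 (adjusted p = 0.00277). The median of 21 targets of TGF-beta, BMP and WNT signalling was -0.51, with -0.03 in siOCT4 cells and -0.89 in control cells. GC corrected, the medians by siRNA were 0.12 and -1.08, with 3 and 12 targets lower and 7 and 3 higher. On the uncorrected average, 8 of the 21 were called lower and 4 higher (38.1% and 19%, against 18.8% and 13.2% of all genes). Without replicate 1 or 2 of siOCT4 cells at 20% oxygen 5 were lower, and without any 1 siOCT4 culture or replicate 1 of control cells at 20%, 2 were higher. After GC correction, effects in siOCT4 and control cells were -0.10 and -4.25 for FGF8, -0.88 and -2.70 for LEFTY1 and -0.51 and -2.87 for WFIKKN1. The fall of these 3 genes was then called in control cells alone (adjusted p in siOCT4 cells 0.911, 0.083 and 0.172). That of DKK1 was called in neither (-2.38 and -3.23, adjusted p = 0.164 and 0.0694).

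Cytosolic ribosomal proteins fell: 54 of the 79 measured were called lower at 1% oxygen and 0 higher, against 18.8% and 13.2% of all genes. Their median average effect was -0.65, and all 79 estimates lay below 0, between -1.54 and -0.06. The fall was uneven between the siRNAs, with a median effect of -1.34 in siOCT4 cells and -0.04 in control cells, against 0.27 and -0.31 over all genes. By culture, the median ratio of the 79 genes was 0.338 and 0.350 in siOCT4 cells and 0.969 and 0.838 in control cells at 1% oxygen, against 0.846 and 0.902 in siOCT4 cells and 0.909 and 0.924 in control cells at 20%. The 2 hypoxic siOCT4 cultures lay below the other 6. In siOCT4 cells alone 67 were called lower and 0 higher, against 21.6% and 37.4% of all genes. In control cells 22 were lower and 14 higher, against 39.6% and 20.5% of all genes. Lower in both were 14, against 2.58% of all genes. GC corrected, the medians were -1.49 in siOCT4 cells and 0.14 in control cells, with 73 lower and 0 higher in siOCT4 cells and 11 lower and 19 higher in control cells. The count of 54 was 32, 34, 30 and 27 without replicate 1 or 2 of siOCT4 cells at 1% oxygen and replicate 1 or 2 of siOCT4 cells at 20%. It was 57 after GC correction (20.8% of all genes lower), 35 after GC and length correction (19.9%) and 18 after quantile normalization (2636 of all 15864 genes lower). Ribosomal protein genes have many processed pseudogenes, and the labels do not say how their reads were assigned.

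Within that group, RPS26 fell under both siRNAs. Its ratios were 0.691 and 0.714 in siOCT4 cells and 0.558 and 0.606 in control cells at 1% oxygen, against 1.49 and 1.5 in siOCT4 cells and 1.84 and 1.61 in control cells at 20%. Its average effect was -1.33 ± 0.09 (adjusted p = 0.00277; -1.09 in siOCT4 cells and -1.56 in control cells). RPS20 also fell under both, with an average of -1.54 ± 0.20 (adjusted p = 0.00506), -1.72 in siOCT4 cells and -1.36 in control cells. RPS21 had ratios of 0.183 and 0.160 in siOCT4 cells and 0.764 and 0.743 in control cells at 1% oxygen, against 0.831 and 0.885 in siOCT4 cells and 1.14 and 0.815 in control cells at 20%. Its average of -1.34 ± 0.16 (adjusted p = 0.0044) came from siOCT4 cells (-2.32), while the effect in control cells was -0.36 (adjusted p = 0.216). RPL7 fell by 1.25 ± 0.10 (adjusted p = 0.00277), with -0.53 in siOCT4 cells and -1.97 in control cells. GC correction turned this order round, to -1.71 and -0.59 (adjusted p = 0.00565 for the interaction). RPS26 stayed lower in both (-1.71 and -1.11), now with a called interaction (adjusted p = 0.0232).

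Because mTORC1 acts on mRNAs that start with a pyrimidine run, the annotated starts of these genes were read from RefSeq's promoter table (GRCh38.p14). The motif searched was a C at the first transcribed base followed by at least 4 bases that are C or T, on the transcript's own strand. A gene counted as having the motif if any of its annotated starts had it. For such a gene the start shown was taken from those with the motif. Windows of 30 bases, 15 before the start and 15 from it, are shown for 3 genes with the motif, whose run is in capitals, and 2 without it: a ribosomal protein that fell, a respiratory chain subunit that fell, an elongation factor with the motif that was not called, and a ribosomal protein and an import receptor that fell without the motif. They lie at chr20:62387088-62387117 (+ strand), chr5:86617926-86617955 (+ strand), chr6:73521018-73521047 (- strand), chr12:56041903-56041932 (+ strand) and chr22:38681942-38681971 (+ strand).
RPS21: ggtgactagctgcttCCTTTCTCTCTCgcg
COX7C: ccatttcccatctttCTTTTCagtccttgc
EEF1A1: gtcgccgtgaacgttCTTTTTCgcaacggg
RPS26: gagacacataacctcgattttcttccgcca
TOMM22: gctcacctcctttccgcttccggtgtcccc
EEF1A1, the elongation factor that delivers aminoacyl-tRNA to the ribosome, was chosen after its values were seen. Its ratios were 0.869 and 0.931 in siOCT4 cells and 1.06 and 0.988 in control cells at 1% oxygen, against 0.813 and 0.816 in siOCT4 cells and 0.970 and 1.00 in control cells at 20%, with an average effect of 0.10 ± 0.09 (adjusted p = 0.431). After GC correction it was lower in siOCT4 cells (-0.72, adjusted p = 0.0111) and higher in control cells (0.86, adjusted p = 0.00448).

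The motif was found in 4.07% of the 35116 starts of the table. By gene, where any start sufficed, it was found in 7.19% of the 11983 tested genes that matched the table. Of the 63 cytosolic ribosomal protein genes that matched, 47 had it (74.6%). Of those 47, 32 were called lower, with a median average effect of -0.68, and of the 16 without it 11 were called lower, with a median of -0.54. Over the 11983 tested genes that matched the table, 24.8% of the 862 with the motif were called lower, against 19.4% of the 11121 without it. Among mRNAs alone, without the cytosolic ribosomal proteins, 22.5% of 781 with the motif and 19.9% of 10398 without it were called lower. Their median average effect was -0.09 with and without the motif, but the siRNAs differed. The medians with and without it were 0.04 and 0.33 in siOCT4 cells, and -0.27 and -0.38 in control cells. The motif is a description of these windows, and a start used in H9 cells may differ from the annotated one. Many translation factors are known to carry such starts, and the motif was found in 9 of the 31 that matched (29%). Of these 9, 1 was called higher and 2 lower, and of the 22 without it 4 were higher and 5 lower. Among all 39 measured translation factors 6 were called higher and 8 lower, shares of 15.4% and 20.5%, against 13.2% and 18.8% of all genes. Leaving out 1 culture gave 1 to 6 higher and 5 to 10 lower, with 1 higher without replicate 1 of siOCT4 cells at 1% oxygen or replicate 2 of siOCT4 cells at 20%. Among the 8 were a subunit of eIF3 and the cap-binding protein: EIF3E fell by 1.28 ± 0.15 (adjusted p = 0.00417) and EIF4E fell by 0.87 ± 0.10 (adjusted p = 0.00423). The effect of EIF3E was 0.08 in siOCT4 cells (adjusted p = 0.755) and -2.64 in control cells, and that of EIF4E 1.02 (adjusted p = 0.00197) and -2.76. GC corrected effects were -1.32 and -0.57 for EIF3E and -0.38 and -0.77 for EIF4E, lower in both siRNAs for each gene. The interaction of EIF3E then had the opposite sign (adjusted p = 0.0163) and that of EIF4E was lost (adjusted p = 0.0918).

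In each of 3 lists of mitochondrial proteins made in the cytosol, most members fell on the average too. Of 76 mitochondrial ribosomal proteins, 50 were called lower and 1 higher, with a median of -0.69 (-0.73 in siOCT4 cells and -0.56 in control cells). Of 62 nuclear-encoded subunits of the respiratory chain and ATP synthase, 41 were lower and 1 higher, with a median of -0.72 (-1.26 in siOCT4 cells and -0.18 in control cells). Of 25 components of mitochondrial protein import, 16 were lower and 1 higher, with a median of -0.81 (-0.94 in siOCT4 cells and -0.86 in control cells). Over all genes the medians were 0.27 in siOCT4 cells and -0.31 in control cells. In control cells the median of the respiratory chain list thus lay above that of all genes. Of the import genes, 8 of the 25 were lower under both siRNAs when each was tested alone, against 2.58% of all genes. By culture, their median ratio was 0.607 and 0.675 in siOCT4 cells and 1.07 and 0.865 in control cells at 1% oxygen, against 1.18 and 1.33 in siOCT4 cells and 1.53 and 1.51 in control cells at 20%. The hypoxic cultures lay below the others under each siRNA. GC corrected medians in siOCT4 and control cells were -0.94 and -0.37 for mitochondrial ribosomal proteins, -1.35 and 0.09 for the respiratory chain and -0.93 and -0.24 for import. Import genes lower in both then numbered 7 of 25. Leaving out 1 culture at a time gave 14 to 16 import genes lower. It gave 33 to 49 mitochondrial ribosomal proteins (33 without replicate 2 of siOCT4 cells at 20% oxygen) and 27 to 40 respiratory chain subunits (27 without the same culture). After GC and length correction 17 of the import genes, 35 of the mitochondrial ribosomal proteins and 32 of the respiratory chain subunits were still called lower, against 19.9% of all genes. The single members called higher were MRPS27, NDUFS1 and the import chaperone HSPA9, with averages of 0.46, 0.49 and 0.63; these and the exceptions named for other lists were picked after their values were seen.

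NDUFA4, a small subunit of respiratory complex IV, had ratios of 0.579 and 0.590 in siOCT4 cells and 0.749 and 0.812 in control cells at 1% oxygen, against 1.55 and 1.55 in siOCT4 cells and 2.66 and 1.90 in control cells at 20%. The effects were -1.41 in siOCT4 cells and -1.53 in control cells, with an average of -1.47 ± 0.13 (adjusted p = 0.003). COX7C, another complex IV subunit, whose start is shown above, fell by 1.27 ± 0.10 (adjusted p = 0.00277), and NDUFB3 of complex I fell by 1.29 ± 0.17 (adjusted p = 0.00521). TOMM22, the central receptor of the outer membrane import pore, had ratios of 0.561 and 0.563 in siOCT4 cells and 0.762 and 0.574 in control cells at 1% oxygen, against 1.21 and 1.35 in siOCT4 cells and 1.66 and 1.59 in control cells at 20%. Its average effect was -1.24 ± 0.12 (adjusted p = 0.00344), and the adjusted p of its interaction was 0.725. TOMM6, a small subunit of the same pore, fell by 1.46 ± 0.15 (adjusted p = 0.00351), and TIMM10, a chaperone of the space between the membranes, fell by 1.36 ± 0.16 (adjusted p = 0.00425). Of the mitochondrial ribosomal proteins, MRPS17 fell by 1.60 ± 0.16 (adjusted p = 0.00351), and MRPL53 fell by 1.28 ± 0.21 (adjusted p = 0.00886), which came from siOCT4 cells (-2.04; -0.52 in control cells, adjusted p = 0.178). GC corrected, NDUFA4, COX7C and NDUFB3 fell in siOCT4 cells alone: effects in siOCT4 and control cells were -2.77 and 0.29 for NDUFA4, -2.61 and 0.67 for COX7C and -2.07 and -0.39 for NDUFB3. In control cells COX7C was then called higher (adjusted p = 0.0288) and the others were not called (adjusted p = 0.177 and 0.305). TOMM22 remained lower in both (-1.96 and -0.64), with a called interaction (adjusted p = 0.012), and so did MRPS17 (-1.5 and -1.84), whose interaction was lost (adjusted p = 0.404). The proteasome, which degrades tagged proteins, had 17 of 31 members lower and 1 (PSMD1) higher, with a median of -0.42 (-0.33 in siOCT4 cells and -0.14 in control cells). PSMA4, a subunit of its core, fell by 1.61 ± 0.12 (adjusted p = 0.00277), with 0.17 in siOCT4 cells (adjusted p = 0.419) and -3.39 in control cells. After GC correction PSMA4 was 1 of 2 proteasome members lower in both (-1.09 and -1.84). The corrected medians of the list were -0.63 in siOCT4 cells and 0.15 in control cells. In siOCT4 cells 20 members were then lower and 1 higher, and in control cells 4 lower and 7 higher. The proteasome count was 8 to 10 without any 1 of the 4 siOCT4 cultures. It was 8 of 31 after GC and length correction, with a median of -0.17, against 19.9% of all genes.

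**Figure D3:**
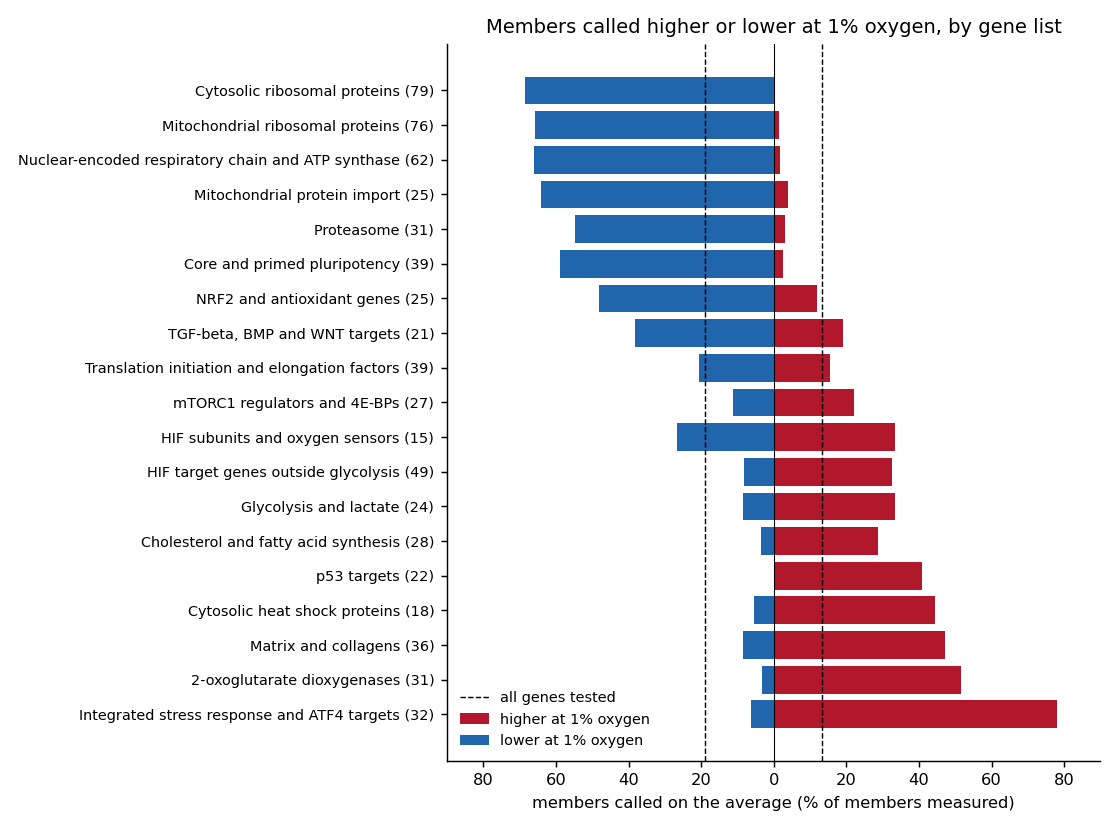
Share of the measured members of 19 gene lists called higher (red, to the right) or lower (blue, to the left) on the average of both siRNAs, in percent, with the number measured in brackets; dashed lines mark the shares among all genes tested, 13.2% higher and 18.8% lower. Ribosomal, respiratory chain, import and proteasome genes and the pluripotency list lie mostly on the lower side, and targets of ATF4, 2-oxoglutarate dioxygenases and matrix genes on the higher side.

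The ribosomal and mitochondrial groups that fell have short coding regions, and coding length was related to the average effect over all mRNAs. The 14185 mRNAs with a known coding length were split into 10 length classes of equal size. In the shortest class (75 to 549 bases) 4.37% of genes were called higher and 46.0% lower, with a median average effect of -0.54. In the longest (from 3537 bases upwards) 28.0% were higher and 4.79% lower, with a median of 0.26. Spearman's rho between coding length and the average effect was 0.35 over genes, against 0.26 for the whole transcript, 0.07 for the 3′ UTR and -0.02 for the 5′ UTR. After GC correction rho was 0.36 for the average, 0.54 in siOCT4 cells and 0.01 in control cells. The corrected median effect of the shortest and longest classes was -0.80 and 0.69 in siOCT4 cells, and -0.03 and 0.00 in control cells. The relation with coding length was thus near 0 in control cells. The median coding length was 453 bases for cytosolic ribosomal proteins, 585 for mitochondrial ribosomal proteins, 399 for the respiratory chain and 435 for the import genes, against 1419 for all tested genes. The length corrected counts above used the length of the whole transcript, not of the coding region. How much of the fall of these groups goes with coding length was not tested.

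**Figure D4:**
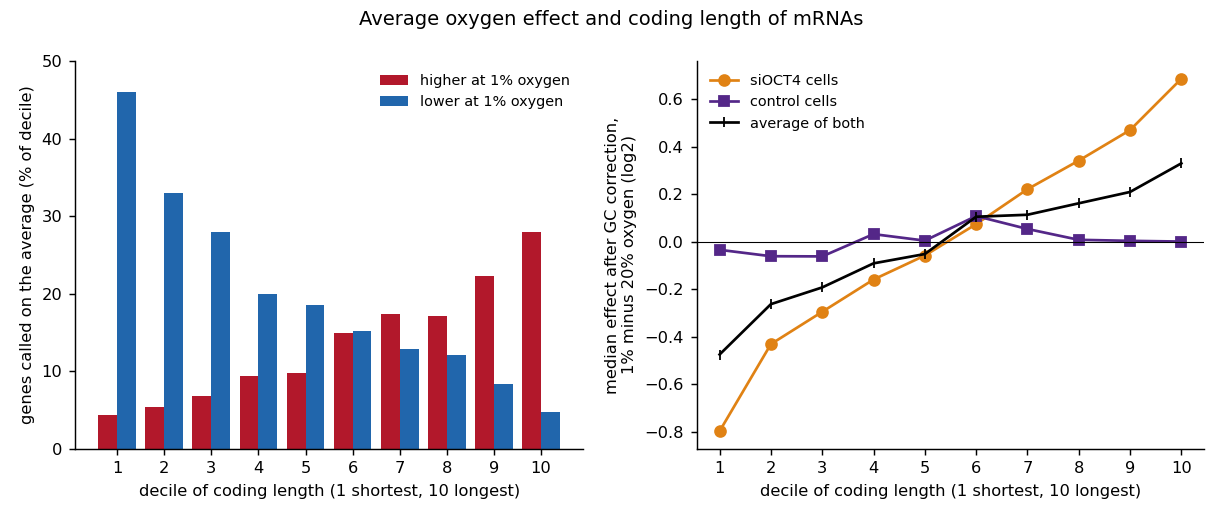
Length classes (10, of equal size) of 14185 mRNAs by coding length, shortest on the left. The left panel gives the percentage of genes called higher (red) and lower (blue) on the average, which run from 4.37% and 46.0% in the shortest class to 28.0% and 4.79% in the longest; the right panel gives the median oxygen effect after GC correction (log2), which follows length in siOCT4 cells and stays within 0.11 of 0 in control cells.

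Genes of the integrated stress response rose: 25 of 32 ATF4 targets and related genes were called higher and 2 lower, with a median average effect of 0.85. The median effect was -0.06 in siOCT4 cells and 1.77 in control cells, and 1 of the 32 was higher in both (GC corrected, -0.13, 1.95 and 4). By culture, the median ratio of the list was 0.941 and 0.921 in siOCT4 cells and 2.17 and 1.91 in control cells at 1% oxygen, against 1.02 and 1.08 in siOCT4 cells and 0.390 and 0.459 in control cells at 20%. The control cells had both the highest values, at 1% oxygen, and the lowest, at 20%. GDF15, a stress cytokine, had ratios of 0.510 and 0.455 in siOCT4 cells and 3.36 and 2.54 in control cells at 1% oxygen, against 0.884 and 1.04 in siOCT4 cells and 0.0146 and 0.0210 in control cells at 20%. Its average effect of 3.19 ± 0.22 (adjusted p = 0.00277) combines -1.0 in siOCT4 cells, where it fell (adjusted p = 0.0356), with 7.38 in control cells. DDIT3, which encodes the transcription factor CHOP, had ratios of 1.67 and 1.49 in siOCT4 cells and 4.04 and 3.73 in control cells at 1% oxygen, against 1.28 and 1.34 in siOCT4 cells and 0.201 and 0.245 in control cells at 20%. The average was 2.20 ± 0.11 (adjusted p = 0.00265), with 0.27 in siOCT4 cells (adjusted p = 0.176) and 4.13 in control cells. ATF3, a stress-induced transcription factor, and FGF21, a stress hormone, gave averages of 2.04 ± 0.17 and 2.34 ± 0.28 (adjusted p = 0.00277 and 0.00441) and effects in siOCT4 cells of 0.13 and 0.05 (adjusted p = 0.656 and 0.923). The fall of GDF15 in siOCT4 cells was lost after GC correction (0.04, adjusted p = 0.868; 6.54 in control cells).

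The 2 members called lower were ATF4 itself, the transcription factor of the response, and XPOT, an exporter of tRNA from the nucleus. ATF4 had ratios of 0.840 and 0.835 in siOCT4 cells and 0.901 and 0.754 in control cells at 1% oxygen, against 1.09 and 1.12 in siOCT4 cells and 1.17 and 1.46 in control cells at 20%. All hypoxic cultures lay below all others, and it fell by 0.53 ± 0.12 (adjusted p = 0.0203; -0.40 in siOCT4 cells, adjusted p = 0.0803, and -0.66 in control cells, adjusted p = 0.0152). The call of ATF4 was lost without replicate 2 of control cells at 1% oxygen or any 1 siOCT4 culture (adjusted p = 0.0542 to 0.0781). After GC correction its fall was called in control cells alone (0.11 in siOCT4 cells, adjusted p = 0.414, and -1.13 in control cells). The average of XPOT was -0.51 ± 0.15 (adjusted p = 0.0425). XPOT is not among the 83 genes described in detail, and how its call held in the alternative fits is not given.

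For some brakes on mTORC1 and on the stress response itself, the oxygen effect was also larger in control cells. DDIT4, an inhibitor of mTORC1 induced by low oxygen, had ratios of 0.609 and 0.565 in siOCT4 cells and 5.47 and 3.13 in control cells at 1% oxygen, against 1.06 and 1.03 in siOCT4 cells and 0.0795 and 0.174 in control cells at 20%. Its average was 2.15 ± 0.30 (adjusted p = 0.00598), with -0.83 in siOCT4 cells (adjusted p = 0.144) and 5.14 in control cells. SESN2, a leucine sensor upstream of mTORC1, rose by 1.2 ± 0.15 (adjusted p = 0.00475), and TRIB3, a pseudokinase that restrains ATF4, by 1.77 ± 0.11 (adjusted p = 0.00277). TRIB3 fell in siOCT4 cells (-1.07, adjusted p = 0.00262) and rose in control cells (4.61, adjusted p = 0.000152). GC corrected effects in siOCT4 and control cells were -0.19 and 3.89 for TRIB3 and 0.32 and 2.21 for SESN2: the fall of TRIB3 was lost (adjusted p = 0.449) and SESN2 was called higher in siOCT4 cells too (adjusted p = 0.0401). PPP1R15A, the phosphatase subunit that reverses eIF2α phosphorylation, had an average of 1.63 ± 0.34 (adjusted p = 0.019), but this call was lost without replicate 1 of control cells at 1% oxygen or any 1 siOCT4 culture (adjusted p = 0.0522 to 0.0623). AARS, the alanine tRNA synthetase, rose by 0.95 ± 0.11 (adjusted p = 0.00406), with 0.04 in siOCT4 cells (adjusted p = 0.83) and 1.87 in control cells. The count of 25 ATF4 targets and related genes was 16 or 17 without any 1 siOCT4 culture, 21 without either control culture at 1% oxygen, and 26 without either control culture at 20%. It was 27 after GC correction. Of 27 regulators of mTORC1, 6 were higher and 3 lower (22.2% and 11.1%, against 13.2% and 18.8% of all genes), with a median of -0.07. Related genes differed from those above. DDIT4L, a paralogue of DDIT4, fell by 0.95 ± 0.23 on the average (adjusted p = 0.0275), with 0.84 in siOCT4 cells and -2.75 in control cells. PPP1R15B, the constitutive partner of PPP1R15A, was called higher in siOCT4 cells (2.08) and lower in control cells (-1.06), with an average of 0.51 ± 0.15 (adjusted p = 0.0479). DEPTOR, an inhibitor within mTORC1, rose by 1.00 ± 0.26 (adjusted p = 0.0362), with 1.16 and 0.84. GC corrected effects in siOCT4 and control cells were -0.47 and -1.07 for DDIT4L, 0.92 and 0.27 for PPP1R15B and 0.24 and 1.73 for DEPTOR. These 3 were picked after their values were seen. They are not among the 83 genes described in detail, and how their calls held in the alternative fits is not given.

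HIF pathway genes gave smaller and mixed averages. Of 15 HIF subunits and oxygen sensors, 5 were called higher and 4 lower (33.3% and 26.7%, against 13.2% and 18.8% of all genes). EPAS1, the HIF-2α subunit, had ratios of 1.08 and 1.54 in siOCT4 cells and 1.17 and 1.49 in control cells at 1% oxygen, against 0.781 and 0.887 in siOCT4 cells and 0.776 and 0.892 in control cells at 20%. Its average of 0.65 ± 0.16 (adjusted p = 0.0286) came from 0.64 in siOCT4 cells and 0.66 in control cells (GC corrected, 0.67 and 0.49, called in neither), but the call was lost in 14 of 28 alternative fits, among them those without replicate 2 of control cells at 1% oxygen, replicate 1 of control cells at 20%, replicate 2 of siOCT4 cells at 1% or either siOCT4 culture at 20% (adjusted p = 0.0691 to 0.0934). The small partners of the VHL ubiquitin ligase, which marks HIF for destruction, fell. ELOB fell by 1.06 ± 0.13 (adjusted p = 0.00432), ELOC fell by 1.00 ± 0.10 (adjusted p = 0.00363) and RBX1 fell by 1.09 ± 0.16 (adjusted p = 0.00598). RBX1 had ratios of 0.941 and 0.887 in siOCT4 cells and 0.872 and 0.978 in control cells at 1% oxygen, against 1.71 and 1.5 in siOCT4 cells and 2.95 and 1.95 in control cells at 20%, with all hypoxic cultures below the others. The call of ELOC was lost after GC and length correction (-0.42, adjusted p = 0.0755). GC corrected effects in siOCT4 and control cells were -1.08 and -0.90 for ELOB, -2.27 and 1.03 for ELOC and -1.37 and -1.0 for RBX1. ELOC was then called higher in control cells (adjusted p = 0.0123), and the interaction of ELOB was lost (adjusted p = 0.503). The count of 5 higher was 1 to 3 without replicate 2 of control cells at 1% oxygen or any 1 siOCT4 culture.

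Of 49 HIF targets outside glycolysis, 16 were called higher and 4 (HILPDA, STC1, PDK3 and EGLN3) lower (32.7% and 8.16%, against 13.2% and 18.8% of all genes). Their median was 0.31, with 0.03 in siOCT4 cells and 0.25 in control cells. Higher in each siRNA alone were 3, against 2.28% of all genes, while 12 rose in siOCT4 cells and fell in control cells and 7 did the reverse. GC corrected medians were -0.18 in siOCT4 cells (5 higher, 13 lower) and 0.64 in control cells (24 higher, 4 lower). NDRG1, a stress-regulated HIF target, had ratios of 0.584 and 0.734 in siOCT4 cells and 2.26 and 1.92 in control cells at 1% oxygen, against 1.06 and 1.04 in siOCT4 cells and 0.206 and 0.301 in control cells at 20%. It rose by 1.19 ± 0.17 on the average (adjusted p = 0.00574), falling in siOCT4 cells (-0.69, adjusted p = 0.0463) and rising in control cells (3.07). HILPDA, a HIF target that coats lipid droplets, fell by 1.25 ± 0.15 (adjusted p = 0.00436), with ratios of 0.968 and 1.31 in siOCT4 cells and 0.411 and 0.480 in control cells at 1% oxygen, against 1.65 and 1.69 in siOCT4 cells and 1.5 and 1.93 in control cells at 20%. It lay lower in all hypoxic cultures than in all others. After GC correction the fall of NDRG1 in siOCT4 cells was lost (-0.05, adjusted p = 0.826; 2.51 in control cells), and HILPDA was lower in both (-0.76 and -1.94). Of 24 genes of glycolysis and lactate metabolism, 8 were called higher and 2 (LDHB and SLC16A1) lower, with a median of 0.31, but 14 of the 24 fell in siOCT4 cells and rose in control cells, and the median effects were -0.98 and 1.25 (GC corrected, 13 of the 24, with -0.54 and 1.15). PGK1, phosphoglycerate kinase, showed this: its ratios were 0.465 and 0.461 in siOCT4 cells and 2.21 and 1.98 in control cells at 1% oxygen, against 0.821 and 0.838 in siOCT4 cells and 0.417 and 0.373 in control cells at 20%. Its average was 0.78 ± 0.10 (adjusted p = 0.0052). PGM1 rose by 0.88 ± 0.12 (adjusted p = 0.00539) and ALDOC by 0.85 ± 0.16 (adjusted p = 0.0136), each lower in siOCT4 cells and higher in control cells. The call of ALDOC was lost without replicate 1 of siOCT4 cells at 20% oxygen (adjusted p = 0.0562), and the count of 8 was 5 without that culture. HK2, a hexokinase, differed from these: its ratios were 1.12 and 1.2 in siOCT4 cells and 0.975 and 0.950 in control cells at 1% oxygen, against 0.686 and 0.570 in siOCT4 cells and 0.601 and 0.602 in control cells at 20%, so it was higher in all hypoxic cultures, by 0.79 ± 0.11 (adjusted p = 0.00532).

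Iron and 2-oxoglutarate dioxygenases, which use oxygen as a substrate, were called higher for 16 of 31 genes and lower for 1 (RIOX2), with a median of 0.38 (1.2 in siOCT4 cells and 0.06 in control cells; GC corrected, 0.45 and 0.52). PHF8, a histone demethylase, had ratios of 1.19 and 1.16 in siOCT4 cells and 1.01 and 1.1 in control cells at 1% oxygen, against 0.709 and 0.688 in siOCT4 cells and 0.464 and 0.515 in control cells at 20%. All hypoxic cultures were above the others, by 0.93 ± 0.10 (adjusted p = 0.00356). KDM5B rose in siOCT4 cells (1.98; 0.07 in control cells, adjusted p = 0.691) and KDM6B in control cells (-0.47 in siOCT4 cells, adjusted p = 0.0582, and 3.01 in control cells), which gave averages of 1.02 ± 0.10 and 1.27 ± 0.12 (adjusted p = 0.00352 and 0.00341) for these 2 histone demethylases. The GC corrected effects of KDM5B were 0.91 and 1.22, called in both, with no called interaction (adjusted p = 0.22). P4HA2, a collagen prolyl hydroxylase and HIF target, rose by 1.00 ± 0.16 (adjusted p = 0.00813), again with a fall in siOCT4 cells (-0.69) and a rise in control cells (2.69). The count of 16 was 9 without replicate 1 of siOCT4 cells at 1% oxygen and 9 without replicate 2 of siOCT4 cells at 20%.

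**Figure D5:**
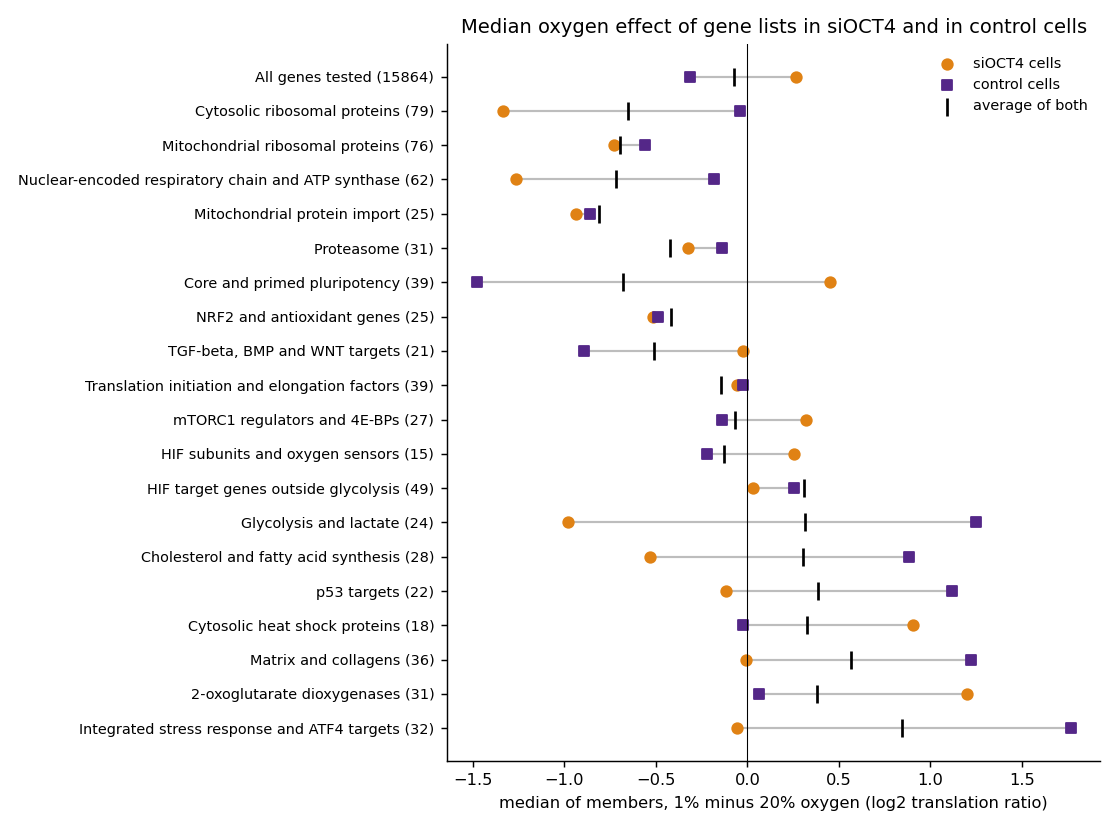
Median oxygen effect (log2, 1% minus 20% oxygen) of 19 gene lists and of all genes tested in siOCT4 cells (orange circles) and in control cells (purple squares), with the median of the members' averages as a black bar, which need not lie midway between the 2 medians; values are not GC corrected. Mitochondrial import genes lie below 0 in both (-0.94 and -0.86; GC corrected, -0.93 and -0.24), whereas the averages of cytosolic ribosomal proteins (-1.34 and -0.04), ATF4 targets (-0.06 and 1.77), glycolysis (-0.98 and 1.25) and core pluripotency genes (0.45 and -1.48) come from 1 siRNA or from opposite effects.

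Of 39 core and primed pluripotency genes, 23 were called lower and 1 (CDH1) higher, with a median of -0.68 (0.45 in siOCT4 cells and -1.48 in control cells), and 18 of the 39 rose in siOCT4 cells and fell in control cells (GC corrected, -0.04, -1.33 and 9). POLR3G, an RNA polymerase III subunit of pluripotent cells, and CD24, a surface protein, were of that kind: POLR3G had ratios of 2.90 and 3.71 in siOCT4 cells and 0.356 and 0.459 in control cells at 1% oxygen, against 1.70 and 1.87 in siOCT4 cells and 13.5 and 9.95 in control cells at 20%. Their averages were -1.98 ± 0.16 and -1.72 ± 0.12 (adjusted p = 0.00277 and 0.00277). After GC correction their rise in siOCT4 cells was lost (-0.45 and -0.10, adjusted p = 0.0672 and 0.574), and both stayed lower in control cells (-2.51 and -3.38). Without replicate 1 of siOCT4 cells at 1% oxygen, or replicate 1 or 2 of siOCT4 cells at 20%, the count of 23 was 15, 13 and 12.

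Genes of the naive pluripotent state were called higher for 3 of 9 and lower for 0, against 13.2% and 18.8% of all genes. All 3 were also higher in each siRNA alone. KLF5, a Krüppel-like factor, had ratios of 3.54 and 3.01 in siOCT4 cells and 2.02 and 2.75 in control cells at 1% oxygen, against 0.999 and 1.22 in siOCT4 cells and 0.699 and 0.371 in control cells at 20%. TFCP2L1, a transcription factor of the naive network, had ratios of 1.71 and 2.27 in siOCT4 cells and 1.51 and 1.56 in control cells at 1% oxygen, against 0.640 and 0.599 in siOCT4 cells and 0.838 and 0.489 in control cells at 20%. The averages were 1.89 ± 0.24 and 1.47 ± 0.20 (adjusted p = 0.00481 and 0.00532), and TBX3 rose by 0.90 ± 0.11 (adjusted p = 0.00431). GC corrected effects in siOCT4 and control cells were 0.82 and 2.84 for KLF5, 1.34 and 1.39 for TFCP2L1 and 0.49 and 1.16 for TBX3, all called higher except that of KLF5 in siOCT4 cells (adjusted p = 0.0952). For all 3 genes each hypoxic culture lay above each other culture, but all 9 genes of the list had a recurrent ratio in at least 1 culture. Lists of other cell types that the cultures could hold gave these calls: trophectoderm 2 higher and 2 lower of 10, amnion 3 and 0 of 5, primitive streak 0 and 1 of 7, endoderm 1 and 2 of 9, mesoderm 0 and 1 of 4, neuroectoderm 1 and 3 of 14, neural crest 4 and 0 of 8, and fibroblast 0 and 3 of 9. Over all genes 13.2% were higher and 18.8% lower. The counts of these small lists rest on single cultures. Leaving out 1 culture gave 1 to 3 and 0 to 2 for trophectoderm, 0 to 3 and 0 for amnion, 0 and 1 to 2 for primitive streak, and 0 to 3 and 1 to 2 for endoderm. It gave 0 and 0 to 1 for mesoderm, 0 to 3 and 3 to 4 for neuroectoderm, 0 to 4 and 0 for neural crest, and 0 to 2 and 1 to 3 for fibroblast. Amnion and neural crest had 0 called without replicate 2 of siOCT4 cells at 20% oxygen. Among them GATA3, a trophectoderm factor, rose by 1.51 ± 0.25 (adjusted p = 0.00883), and HESX1, a forebrain factor, fell by 2.85 ± 0.22 (adjusted p = 0.00277; -0.68 in siOCT4 cells, adjusted p = 0.101, and -5.03 in control cells). GC corrected effects were 1.34 and 1.67 for GATA3 and -1.95 and -3.46 for HESX1, all called. Levels of these markers are not in the table, so the share of such cells was not tested.

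Of 36 matrix genes, 17 were called higher and 3 (VCAN, HAS2 and HAS3) lower (47.2% and 8.33%, against 13.2% and 18.8% of all genes). The median was 0.57, with -0.01 in siOCT4 cells and 1.22 in control cells (GC corrected, 0.24 and 0.93). THBS1, a secreted glycoprotein that activates TGF-beta, had ratios of 1.69 and 1.67 in siOCT4 cells and 1.85 and 2.03 in control cells at 1% oxygen, against 0.755 and 0.715 in siOCT4 cells and 0.413 and 0.459 in control cells at 20%. All hypoxic cultures were higher, by 1.67 ± 0.09 (adjusted p = 0.00265). COL12A1, a fibril-associated collagen, rose by 1.39 ± 0.14 (adjusted p = 0.00356), with 2.62 in siOCT4 cells and 0.16 in control cells (adjusted p = 0.51). The GC corrected effects were 0.27 and 3.05 for THBS1 and 1.79 and 0.93 for COL12A1. That of THBS1 was not called in siOCT4 cells (adjusted p = 0.133), and the interaction of COL12A1 was lost (adjusted p = 0.0623). The count of 17 was 9, 9, 11 and 8 without replicate 1 or 2 of siOCT4 cells at 1% oxygen and replicate 1 or 2 of siOCT4 cells at 20%. Of 25 antioxidant genes, 12 were lower and 3 (HMOX1, TXNRD1 and SLC7A11) higher (48% and 12%, against 18.8% and 13.2% of all genes), with a median of -0.42. TXN, thioredoxin, which TXNIP binds and inhibits, fell by 1.59 ± 0.17 (adjusted p = 0.00363), with ratios of 0.912 and 1.04 in siOCT4 cells and 0.559 and 0.667 in control cells at 1% oxygen, against 1.38 and 1.54 in siOCT4 cells and 4.57 and 2.99 in control cells at 20%. After GC correction TXN fell in both (-1.79 and -1.16), with no called interaction (adjusted p = 0.0944). PRDX4, a peroxiredoxin of the endoplasmic reticulum, fell under both siRNAs (-1.2 in siOCT4 cells and -1.34 in control cells; adjusted p = 0.551 for the interaction) and on the average fell by 1.27 ± 0.10 (adjusted p = 0.00277). HMOX1, the inducible heme oxygenase, rose by 1.31 ± 0.20 (adjusted p = 0.00738), with -0.42 in siOCT4 cells (adjusted p = 0.25) and 3.04 in control cells. Without replicate 1 of siOCT4 cells at 1% oxygen, or replicate 1 or 2 of siOCT4 cells at 20%, 6, 7 and 6 antioxidant genes were lower.

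At the far end were genes whose average was small beside the effects that it joins. APELA, a peptide hormone of embryonic stem cells, had ratios of 3.36 and 4.91 in siOCT4 cells and 0.0666 and 0.0757 in control cells at 1% oxygen, against 1.77 and 1.67 in siOCT4 cells and 18.2 and 12.9 in control cells at 20%. It rose in siOCT4 cells (1.24, adjusted p = 0.00724) and fell in control cells (-7.75, adjusted p = 0.000152), so that an average of -3.26 ± 0.18 (adjusted p = 0.00265) describes neither. HAS2, a hyaluronan synthase, USP44, a deubiquitinase, and SEMA3A, a secreted guidance protein, rose in siOCT4 cells by 2.11, 1.81 and 2.12, and their effects in control cells were -5.59, -4.60 and -4.29. The 3 averages were -1.74 ± 0.27, -1.40 ± 0.18 and -1.09 ± 0.11 (adjusted p = 0.00744, 0.00475 and 0.00362). After GC correction the rise in siOCT4 cells was lost for APELA (-0.15, adjusted p = 0.591), HAS2 (0.72, 0.0886) and USP44 (0.40, 0.181) and kept for SEMA3A (0.72, 0.00648). All 4 stayed lower in control cells, between -5.54 and -2.10. UPP1, uridine phosphorylase, had the reverse pattern, with -1.5 in siOCT4 cells, 4.32 in control cells and an average of 1.41 ± 0.12 (adjusted p = 0.00286). IGFBP2, a binding protein of insulin-like growth factors, had ratios of 0.252 and 0.266 in siOCT4 cells and 3.16 and 2.06 in control cells at 1% oxygen, against 1.12 and 1.32 in siOCT4 cells and 0.192 and 0.286 in control cells at 20%. Its effects of -2.23 in siOCT4 cells and 3.44 in control cells gave an average of 0.61 ± 0.21 that was not called (adjusted p = 0.0724). GC corrected, its effects were -0.86 and 2.32, and the average of 0.73 was called (adjusted p = 0.00452).

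For the remaining lists, counts higher and lower were 9 and 0 of 22 p53 targets, 8 and 1 of 28 genes of cholesterol and fatty acid synthesis, 10 and 6 of 29 autophagy genes, 7 and 2 of 23 tRNA synthetases, 6 and 5 of 23 chaperones of the endoplasmic reticulum, 4 and 7 of 19 iron genes, 3 and 0 of 14 regulators of eIF2α phosphorylation, and 6 and 4 of 28 splicing factors. They were 4 and 8 of 36 DNA replication genes, 5 and 10 of 34 mitotic genes, 2 and 7 of 19 histones, 3 and 3 of 22 interferon and antigen presentation genes, 2 and 1 of 7 nuclear long non-coding RNAs, and 2 and 3 of 17 host transcripts of small nucleolar RNAs. Over all genes 13.2% were higher and 18.8% lower. Some lists lay near these shares: DNA replication (11.1% and 22.2%), interferon and antigen presentation (13.6% and 13.6%) and host transcripts (11.8% and 17.6%). Single cultures moved many of these counts. Leaving out 1 culture gave 8 to 10 p53 targets higher, 3 to 10 cholesterol genes higher, 6 to 10 autophagy genes higher and 2 to 6 lower, and 2 to 6 chaperones of the endoplasmic reticulum lower. It gave 2 to 4 iron genes higher and 4 to 7 lower, 0 to 3 eIF2α regulators higher, 2 to 5 splicing factors higher, 1 to 5 DNA replication genes higher and 4 to 9 lower, and 2 to 6 mitotic genes higher. Histones ranged from 1 to 4 higher and 2 to 8 lower, nuclear long non-coding RNAs from 1 to 3 and 0 to 1, host transcripts from 0 to 2 and 1 to 4, and the mTORC1 regulators lower from 1 to 6. The histone median of -0.46 was 0.22 without replicate 2 of control cells at 20% oxygen.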

How the data were processed

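Per the table's name and header, the authors deposited 1 translation ratio per gene and culture, the value in ribosome-bound RNA over that in total RNA; columns marked "sO" were read as siOCT4. The authors used edgeR with build hg19, per the submitters' processing notes; what edgeR did, and the mapper, filters and library totals, are not stated in the labels. Genes with a ratio in all 8 cultures (15864) were log2 transformed. The model had 4 group means, 4 residual degrees of freedom and limma's trend and robust settings (R 4.3.3, limma 3.58.1, statmod 1.5.0). The average contrast took the mean of both siRNAs; tests were two-sided, Benjamini-Hochberg adjusted over all genes at 0.05. Simulated data were used to check it. Where a group kept a single culture, its spread was taken from the other groups.

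A ratio shared by at least 3 genes of a culture within a relative tolerance of 2e-06 was termed recurrent. GC content and lengths came from GENCODE release 29 by symbol (15261 of the tested genes, 96.2%), which is on another build and gave no coordinates. The GC correction took residuals from a spline with 6 degrees of freedom. Other alternatives were median centring, GC and length correction, quantile normalization, other filters and variance settings, pseudocounts of 0.01 and 0.1, a replicate block, fits without an interaction, and each culture left out. The length correction used the length of the whole transcript.

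The comparison, its 40 gene lists and its tests were chosen with earlier results of these data known. Named genes were POU5F1, the 12 per direction with the largest average that shifted alike in both siRNAs with no recurrent ratio, up to 4 per list, and 5 per direction by interaction; 83 are described in detail, chosen after their values were seen. The alternatives for opposite effects were added after the data were seen. Python 3.11.15, numpy 2.4.6, pandas 2.3.3 and matplotlib 3.10.9 made the summaries and plots.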

Additional observations from a re-analysis of the deposited data

Results flagged for a closer look

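Of the 83 genes described, 56 had an oxygen effect that differed between siOCT4 and control cells by a test of the difference itself (limma's interaction, adjusted p from 8.04e-05 to 0.0312 over all genes tested), against 68.7% of all genes. Values are the log2 oxygen effect in siOCT4 cells minus that in control cells, so that those above 0 (24 genes) were higher in siOCT4 cells and those below 0 (32 genes) higher in control cells.

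Below 0, stress response and mTORC1 genes stood at -8.38 for GDF15, -5.96 for DDIT4, -5.68 for TRIB3, -4.59 for FGF21, -3.86 for DDIT3, -3.82 for ATF3, -3.30 for SESN2, -3.17 for PPP1R15A and -1.83 for AARS. Immediate early and heat shock genes stood at -4.36 for JUN, -3.33 for BHLHE40, -3.17 for HSPA1B, -3.14 for HSPA1A and -2.53 for BAG3. Genes of glycolysis, HIF targets and dioxygenases stood at -3.93 for ALDOC, -3.25 for PGK1, -3.08 for PGM1, -3.75 for NDRG1, -3.49 for KDM6B and -3.37 for P4HA2. Metabolic and secreted genes stood at -5.82 for UPP1, -5.67 for IGFBP2, -3.46 for HMOX1 and -0.96 for THBS1, and the redox and cytoskeletal genes at -2.19 for TXNIP and -1.77 for SPTAN1. Genes with short coding regions stood at -1.97 for RPS21, -1.52 for MRPL53, -1.01 for TIMM10 and -1.69 for ELOB. Transcription factors of pluripotent cells stood at -1.68 for POU5F1 and -0.84 for TBX3.

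Above 0, genes of pluripotent and embryonic cells stood at 8.99 for APELA, 5.72 for POLR3G, 5.03 for CD24, 6.41 for USP44 and 4.34 for HESX1. Secreted and matrix genes stood at 7.71 for HAS2, 6.41 for SEMA3A, 2.46 for COL12A1, 1.90 for FGF8 and 1.73 for PDGFA, and 1.43 for ID3, 1.37 for HILPDA and 1.90 for KDM5B. Genes of translation and the proteasome stood at 3.79 for EIF4E, 3.56 for PSMA4, 3.08 for RPL22L1, 2.86 for METTL5, 2.72 for EIF3E, 1.77 for RPL36AL and 1.44 for RPL7, and mitochondrial and redox genes at 2.68 for RNR2, 2.02 for TXN, 1.81 for TMEM126A and 1.62 for MRPS17. 

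These values are not GC corrected. After GC correction, 43 of the 55 with a GC value were called with the same sign. The interaction was lost for POU5F1 (-0.52, adjusted p = 0.0835), RPL36AL, MRPS17, ELOB, KDM5B, COL12A1, TXN, RPL22L1 and EIF4E. It had the opposite sign for TMEM126A (-1.45, adjusted p = 0.03), RPL7 (-1.12, 0.00565) and EIF3E (-0.75, 0.0163). A further 14 described genes, not called before, then had a called interaction: ARRDC3, KLF6, PLK2, WFIKKN1, LEFTY1, KLF5, RPS26, NDUFA4, NDUFB3, COX7C, TOMM22, EEF1A1, ELOC and ATF4.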

How the results depend on the processing

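The direction of the average held, in each of up to 29 alternatives that gave a value, for the 81 described genes called on it, and 71 stayed called in all but the 2 fits without an interaction term; the other 10 are ATF4, POU5F1, RNR1, WFIKKN1, LEFTY1, DKK1, EPAS1, ALDOC, ELOC and PPP1R15A. With no term for siRNA limma called 0 genes higher and 1 lower, and with siRNA as an additive term 0 and 0. GC correction gave 3194 genes higher on the average, 718 higher and 648 lower in each siRNA alone, 6692 in the interaction and 1765 opposite. The last 2 counts were 6503 and 1562 after GC and length correction and 7034 and 1509 after quantile normalization. Once genes with a recurrent ratio were left out, only 8087 genes were tested, and 6874 of them were called in the interaction. Leaving out 1 culture at a time gave 940 to 2283 genes higher and 1389 to 2904 lower on the average, 190 to 393 higher and 167 to 425 lower in each siRNA alone, 9565 to 11202 in the interaction and 4128 to 6420 opposite. With GC correction these ranges were 2053 to 3098, 1913 to 3055, 235 to 726, 218 to 697, 4687 to 6592 and 620 to 1746. The difference between replicates 1 and 2 had an r of -0.23 between the 2 oxygen levels in control cells. In the other pairs of groups r was -0.04 to 0.02. These correlations across genes do not show whether same-numbered cultures shared a batch. A replicate block gave 1516 genes higher and 2236 lower. With GC correction it gave 558 higher in each siRNA alone, 5968 in the interaction and 1367 opposite. The causes of these shifts were not tested. With genes of recurrent ratio left out, the naive, mesoderm and neural crest lists had no member left. The median of 14 of the 40 lists changed sign in at least 1 alternative, and none of the described ribosomal, mitochondrial, proteasome, ATF4, HIF target or pluripotency lists was among them. Ratios carry no depth, and genes with a recurrent ratio may rest on small read numbers. They were 7777 of the 15864 genes tested, 1956 of the 5075 called on the average and 13 of the 83 described.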
